A study of Mus musculus with 8 samples.

Results

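The 10 genes described here encode the core of the small RNA silencing machinery: the Argonautes Ago1, Ago2 and Ago3, the scaffolds Tnrc6a, Tnrc6b and Tnrc6c, the nucleases Drosha and Dicer1, the Drosha partner Dgcr8, and the export receptor Xpo5. They were found by symbol among the 10639 genes of the expression table, and all 10 were among the 10289 genes tested. Ago2 brought the set in because it was lower in cells given antibodies against CD36 than in untreated cells. Values from that comparison are therefore given as a description, without a test, and so are those of Ago2 in every comparison.

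RAW264.7 cells, a mouse macrophage-like line transformed by Abelson leukaemia virus, were profiled in 4 groups of 2 libraries each. The combination group received lipopolysaccharide (LPS), the bacterial ligand of TLR4, together with anti-CD36 antibodies for 12 h; its labels give no doses. The LPS group received 50 ng/mL for 12 h, the anti-CD36 group received the antibodies at a dilution of 1:100 for 12 h, and the last group was untreated. CD36 is a scavenger receptor for oxidised lipoproteins and fatty acids. The 4 groups hold no antibody of another specificity, so an effect of binding CD36 and an effect of adding antibody cannot be told apart. Nothing in the labels says that the 2 libraries of a group came from separate cultures, so the p-values measure the spread between libraries, which may be technical.

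MicroRNA precursors are cut in the nucleus by the microprocessor, in which Drosha is the nuclease and Dgcr8 binds the RNA. Xpo5 carries the hairpin to the cytoplasm, where Dicer1 cuts it to a short duplex, and 1 strand is loaded into an Argonaute. Ago2 is the mammalian Argonaute best known for cleaving a fully matched target. Argonautes otherwise repress through Tnrc6 (GW182) proteins, which bring in the deadenylases that shorten the poly(A) tail of the target. In macrophages, LPS is well known to induce the gene of miR-155, a microRNA loaded into these Argonautes.

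The cargo gene that moved most with LPS in this table was Mir155hg, the host transcript of miR-155. The mature strand of miR-155 (chr16:84714143-84714165, plus strand) is printed with that of miR-22 (chr11:75463772-75463793, plus strand), whose host transcript Mir22hg was chosen for mention after its values were seen. Sequences are from RefSeq, build GRCm38.p6, written 5′ to 3′, and capitals mark the seed, bases 2 to 8, which pairs with targets. The 2 seeds differ. The libraries measured the host transcripts and not these mature strands.
mmu-miR-155-5p: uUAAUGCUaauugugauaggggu
mmu-miR-22-3p: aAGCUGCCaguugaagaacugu

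Among the machinery genes, Ago1 and Ago3 are neighbours on chromosome 4 that moved in opposite directions with LPS, and Dgcr8 had the largest fall. Their promoter windows, 250 bases before to 50 after the RefSeq start (GRCm38.p6, all on the minus strand), are shown for that reason, at chr4:126429493-126429792 for Ago3, chr4:126468582-126468881 for Ago1 and chr16:18289119-18289418 for Dgcr8. In the Ago3 and Ago1 windows capitals mark the GC box GGGCGG on either strand; in the Dgcr8 window they mark the CCAAT box, also on either strand. These motifs do not overlap each other.
Ago3 promoter: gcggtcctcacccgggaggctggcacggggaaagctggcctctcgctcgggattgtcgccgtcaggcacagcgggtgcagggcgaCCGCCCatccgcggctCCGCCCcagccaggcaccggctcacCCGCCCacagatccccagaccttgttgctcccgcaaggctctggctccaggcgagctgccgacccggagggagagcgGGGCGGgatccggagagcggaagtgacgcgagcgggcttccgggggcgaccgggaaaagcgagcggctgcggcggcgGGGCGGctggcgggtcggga
Ago1 promoter: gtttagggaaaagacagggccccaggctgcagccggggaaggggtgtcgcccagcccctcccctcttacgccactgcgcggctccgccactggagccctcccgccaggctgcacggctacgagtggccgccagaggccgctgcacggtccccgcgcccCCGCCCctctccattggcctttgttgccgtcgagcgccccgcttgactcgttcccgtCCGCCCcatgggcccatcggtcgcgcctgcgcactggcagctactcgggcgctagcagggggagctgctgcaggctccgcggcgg
Dgcr8 promoter: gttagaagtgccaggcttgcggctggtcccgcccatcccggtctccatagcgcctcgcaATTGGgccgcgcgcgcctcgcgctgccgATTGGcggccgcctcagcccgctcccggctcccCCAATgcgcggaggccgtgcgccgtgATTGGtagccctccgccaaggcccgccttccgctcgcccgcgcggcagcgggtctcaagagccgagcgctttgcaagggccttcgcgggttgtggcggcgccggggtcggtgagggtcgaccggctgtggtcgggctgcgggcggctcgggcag

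GC boxes numbered 5 in the Ago3 window, 2 in the Ago1 window and 2 in the Dgcr8 window. CCAAT boxes numbered 0, 1 and 4 in the same order. A GC box was present in 35.7% of all 32851 mouse promoter windows of this length and in 64.0% of the windows of genes in the table, and a CCAAT box in 37.4% and 38.0%. The 3 windows held 37, 31 and 43 CpG dinucleotides against a median of 7 over all windows. A second window of Ago1 held 38. No CpG median was computed for windows of genes in the table, so richness against those is not shown. A window was matched for 9 of the 10 genes. A kappa B site of the NF-kappa B family was searched for by its consensus, which 4.51% of all windows hold; Dicer1 was the 1 gene of these 9 with a match. Matches of letters are a description and not evidence of a bound factor.

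Depth, recovered from the values, was 47900000 to 71700000 reads a library. At these depths 3 reads in a transcript of 2000 bp equal an FPKM (fragments per kilobase of transcript, scaled to library depth) of 0.0209 to 0.0313, by counting error alone. All 10 genes lay far above this, with about 519 reads (Tnrc6c) to 26829 reads (Ago2) in their lowest and highest libraries. All 9 macrophage markers looked for were in the table, led by Lyz2, with a summed FPKM of 3951 to 4481 in the combination, 4228 to 4297 with LPS, 4770 to 5383 with anti-CD36 and 3621 to 4204 in untreated cells. The sum hides opposite moves: Csf1r, the CSF-1 receptor, was at 102 and 104 FPKM with LPS and 311 and 306 FPKM in untreated cells, and Adgre1 (F4/80) at 82.8 and 84.1 FPKM with LPS and 13.8 and 12.2 FPKM in untreated cells. Of the other markers, 2 of 6 for B cells were in the table (summed FPKM 68.04 to 110.1, nearly all Ighm), 1 of 6 for T cells (Lck, 1.72 to 4.32 FPKM and higher in both LPS-treated groups) and 1 of 5 for granulocytes (Csf3r, 2.97 to 4.92 FPKM). Of the markers of endothelium (4), epithelium (4) and fibroblasts (5), 0 were in the table. Mitochondrial genes took 15.7% of all FPKM in 1 library, anti-CD36 replicate 1, and 3.28% to 6.62% in the other 7. Tested calls of the 10 genes that changed with mitochondrial genes left out are given beside the results.

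FPKM is scaled to transcript length, so levels of different genes are set side by side here as a description. Differences between replicates of 1 group still followed gene length, as given below, so an order of genes of unlike length is not secured. In untreated cells Xpo5 (26.8 ± 0.662 FPKM; SD, n = 2 here and below) and Ago2 (24.6 ± 2.87 FPKM) stood highest, followed by Ago1 (14.0 ± 0.492 FPKM) and Drosha (13.3 ± 1.73 FPKM). Tnrc6a, Dicer1 and Dgcr8 had means of 7.24, 5.63 and 5.50 FPKM, and Tnrc6b, Tnrc6c and Ago3 of 3.66, 3.33 and 1.54 FPKM. Replicate ranges overlapped between the neighbours Xpo5 and Ago2, Ago1 and Drosha, Dicer1 and Dgcr8, and Tnrc6b and Tnrc6c, so their order is not resolved. With LPS Ago2 led without overlap, at 19.2 ± 0.117 FPKM against 15.6 ± 0.832 FPKM for Xpo5. With anti-CD36 alone Xpo5 led at 23.1 ± 2.89 FPKM and Ago2 stood at 9.11 ± 1.59 FPKM, near Drosha and Ago1.

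**Figure D1:**
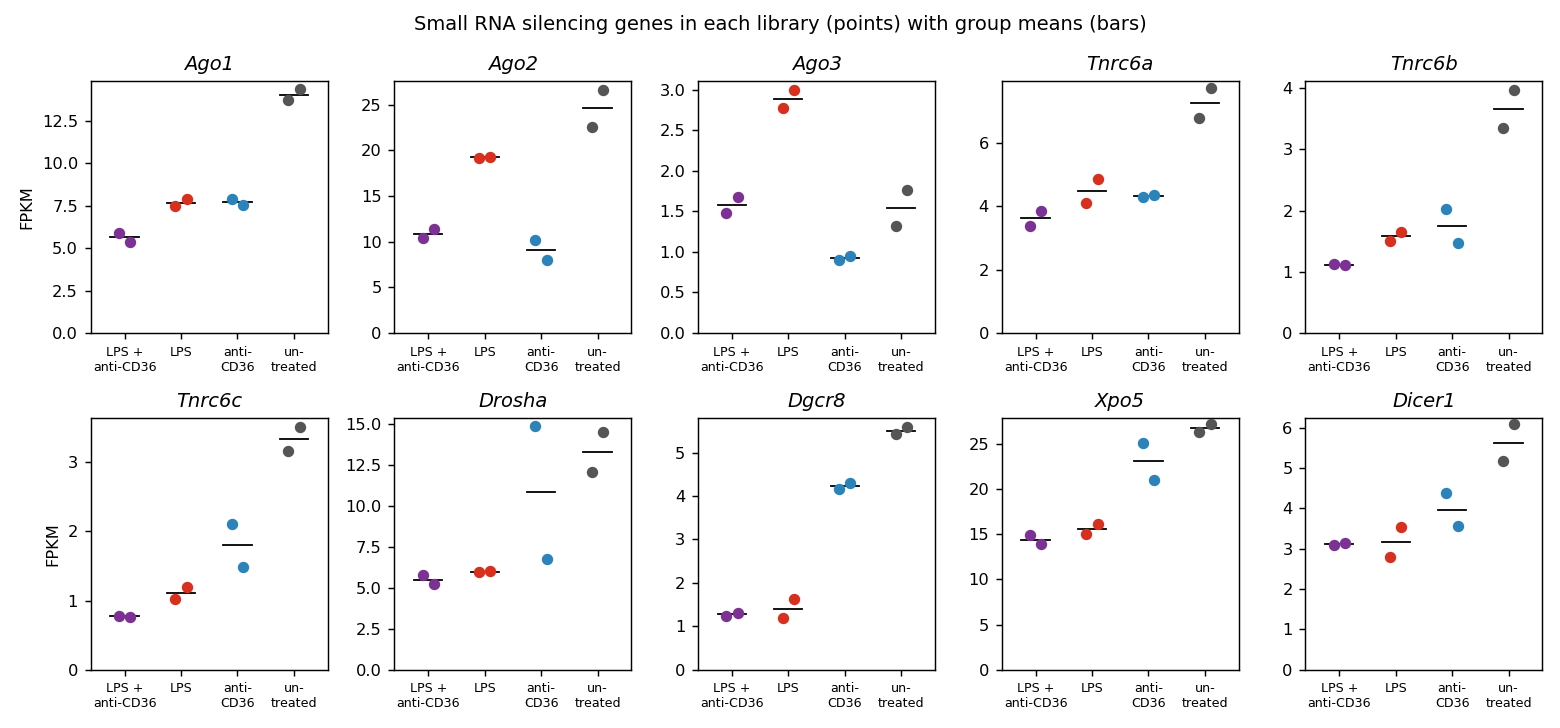
FPKM of the 10 genes in each library, by group, with points for the 2 libraries and a bar for their mean. Ago2 lies between 7.99 and 11.4 FPKM in all 4 libraries with antibody and between 19.1 and 26.7 FPKM in the 4 without. Ago2 was chosen for being lower with the antibodies, so this gap is a description. Dgcr8 and Xpo5 separate the libraries by LPS instead.

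LPS was set against untreated cells to see how the machinery stood after 12 h of TLR4 stimulation. Of the 9 genes other than Ago2, 8 fell and 1, Ago3, rose. Ago2 is described without a test, since the untreated libraries also served to choose it. Across all tested genes 54.6% were called, 37.5% lower and 17.0% higher (limma, Benjamini-Hochberg adjusted p under 0.05), so a fall was common in the table as a whole. The median difference was -0.77 over the 10 genes and -0.19 over all tested genes, in log2(FPKM + 1), a scale that understates changes of low genes. In bulk RNA, fewer cells expressing a gene and less RNA per cell cannot be told apart.

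Dgcr8, of the microprocessor, had the largest fall of the 10 genes. Dgcr8 (chr16:18253948-18289246, minus strand, GRCm38) was at 1.2 and 1.62 FPKM in LPS libraries, against 5.42 and 5.58 FPKM in untreated ones. The LPS libraries were far below the untreated ones and did not overlap them, a fall of 1.44 ± 0.11 (log2 difference ± SE, as below; limma adjusted p = 5.5e-05). Drosha, its partner, was at 5.97 and 6.01 FPKM with LPS and 12.1 and 14.5 FPKM in untreated cells, again without overlap, and fell by 1.03 ± 0.29 (limma adjusted p = 0.0199). That call held in 12 of 18 alternatives. It was lost with median-ratio size factors (difference -0.81, adjusted p = 0.0613), quantile normalization (-0.85, 0.051) and the length trend removed (-0.72, 0.0658), and without untreated replicate 2 (-0.90, 0.0973), LPS replicate 1 (-1.02, 0.0881) or LPS replicate 2 (-1.03, 0.0816). Xpo5 was at 15.0 and 16.2 FPKM with LPS and 26.3 and 27.3 FPKM in untreated cells, and fell by 0.75 ± 0.12 (limma adjusted p = 0.00147). Dicer1, the cytoplasmic nuclease, was at 2.81 and 3.54 FPKM with LPS and 5.17 and 6.08 FPKM without, and fell by 0.67 ± 0.14 (limma adjusted p = 0.00486). In each of these genes both LPS libraries were below both untreated libraries, as they were for 54.5% of all tested genes.

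The Argonautes divided. Ago3 (chr4:126331704-126429556, minus strand) was at 2.77 and 3.0 FPKM with LPS and 1.32 and 1.76 FPKM in untreated cells, a level 187% of the untreated one. Both LPS libraries were above both untreated ones, as for 30.6% of all tested genes, and Ago3 rose by 0.62 ± 0.11 (limma adjusted p = 0.0029). Its neighbour Ago1 (chr4:126435012-126468583, minus strand) moved the other way, at 7.45 and 7.89 FPKM with LPS and 13.7 and 14.4 FPKM in untreated cells, and fell by 0.80 ± 0.10 (limma adjusted p = 0.000498). Ago2 (chr15:73095844-73184935, minus strand) was at 19.1 and 19.3 FPKM with LPS and 22.6 and 26.7 FPKM in untreated cells. Its LPS libraries were slightly below the untreated ones, with a difference of -0.34 ± 0.14. Over 18 alternative settings it ran from -0.55 to -0.10.

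All 3 scaffold genes fell with LPS. Tnrc6c (chr11:117654289-117763439, plus strand) was at 1.03 and 1.20 FPKM with LPS and 3.17 and 3.50 FPKM in untreated cells, 33.3% of the untreated level (fall of 1.04 ± 0.13, limma adjusted p = 0.000428). Tnrc6b was at 1.51 and 1.66 FPKM with LPS and 3.35 and 3.97 FPKM without (fall of 0.85 ± 0.13, limma adjusted p = 0.00109). Tnrc6a, the most abundant of the family, was at 4.10 and 4.84 FPKM with LPS and 6.76 and 7.72 FPKM without (fall of 0.59 ± 0.12, limma adjusted p = 0.00438). The LPS libraries were below the untreated ones without overlap in all 3 genes, as for 54.5% of all tested genes.

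Scaling bears on these counts. Among all genes called with LPS, 31.2% were higher as deposited, 49.6% with median-ratio size factors, 44.6% after quantile normalization, 50.6% with the length trend removed and 19.6% with mitochondrial genes left out. The size factors moved the median of all genes from -0.19 to 0.01. Under each of these scalings Dgcr8, Xpo5, Dicer1, Ago1 and the 3 Tnrc6 genes remained called lower and Ago3 called higher.

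The combination was set against LPS to see what the antibodies did in stimulated cells, in libraries other than those of anti-CD36 alone and untreated cells. Ago2 was chosen for being lower with the antibodies, the trait compared here, so it is described without a test. Ago2 was at 10.4 and 11.4 FPKM in the combination and 19.1 and 19.3 FPKM with LPS. Both combination libraries were well below both LPS libraries, at 56.6% of the LPS level. The Ago2 difference was -0.77 ± 0.14, and it ran from -0.85 to -0.49 over 18 alternatives. Of all tested genes, 1.42% were called lower, 0.36% higher and 1.78% either way. Among all genes called here, 20.2% were higher as deposited, and 14.0% to 33.1% under the other scalings.

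The 9 other genes did not pass the test in this comparison. Ago3 came nearest, at 1.47 and 1.67 FPKM in the combination and 2.77 and 3.0 FPKM with LPS, a difference of -0.60 ± 0.11 (limma adjusted p = 0.0504). Ago1 was at 5.88 and 5.38 FPKM in the combination and 7.45 and 7.89 FPKM with LPS, a difference of -0.39 ± 0.10 (limma adjusted p = 0.0982). For both Argonautes the combination libraries lay below the LPS libraries without overlap, as for 35.6% of all tested genes. The Tnrc6 differences were -0.24, -0.29 and -0.25 for Tnrc6a, Tnrc6b and Tnrc6c. Drosha, Dgcr8, Xpo5 and Dicer1 differed by -0.10, -0.08, -0.10 and -0.01, and the libraries of Dgcr8 and Dicer1 overlapped. The median was -0.25 over the 10 genes and -0.02 over all tested genes.

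**Figure D2:**
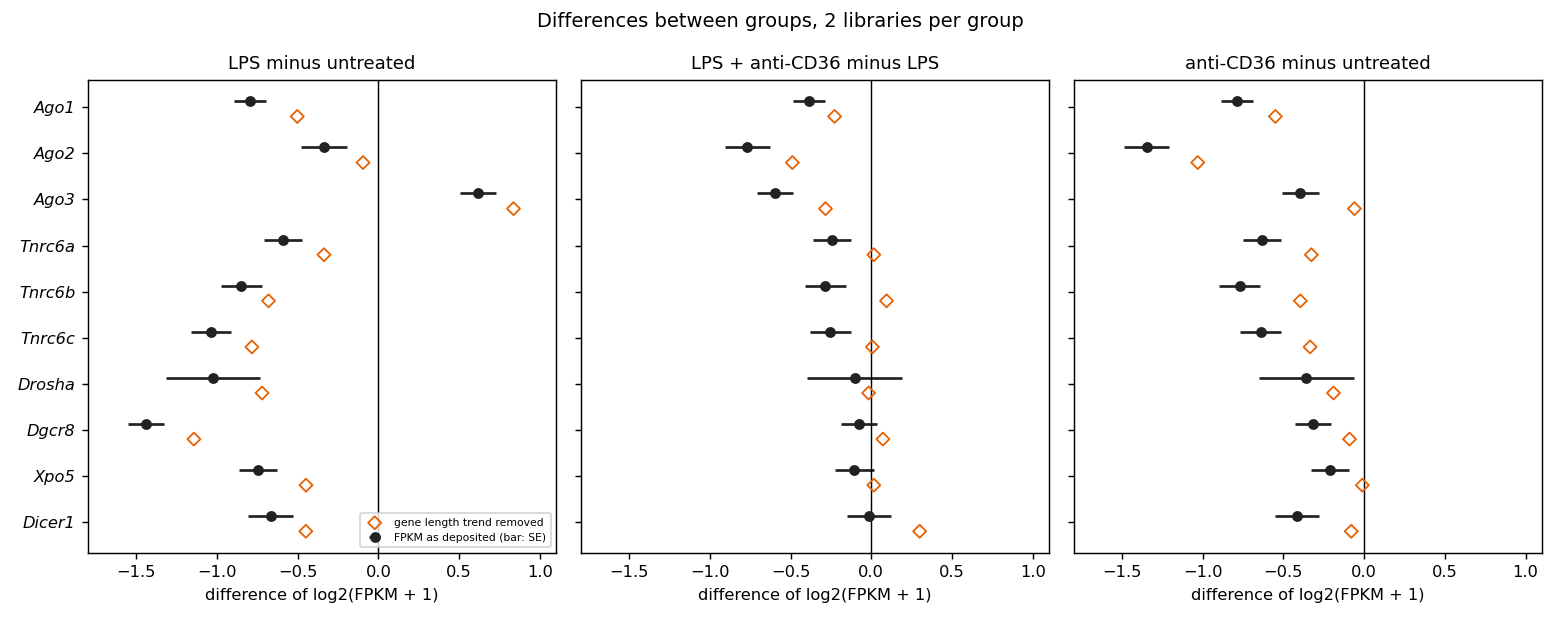
Difference of log2(FPKM + 1) for each gene in 3 comparisons, as filled points with the standard error, and with the trend on gene length removed as open diamonds. With LPS against untreated cells 9 of 10 genes lie below 0 and Ago3 at 0.62 above it, while in the combination against LPS the differences run from -0.77 (Ago2) to -0.01 (Dicer1).

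Anti-CD36 without LPS, set against untreated cells, is the comparison from which Ago2 was taken, and its values are a description. Cd36 RNA was scarce here, at 0.169 and 0.223 FPKM with anti-CD36 and 0.0400 and 0.117 FPKM in untreated cells. It was at 4.71 and 5.57 FPKM with LPS and 7.98 and 9.08 FPKM in the combination. The libraries did not measure CD36 protein. Ago2 was at 10.2 and 7.99 FPKM with anti-CD36 and 22.6 and 26.7 FPKM in untreated cells, 37.0% of the untreated level and a difference of -1.35. All 10 genes had differences below 0, with a median of -0.52 against -0.08 over all tested genes, of which 13.7% were called in this comparison, 10.6% lower and 3.04% higher. The higher share of those calls was 22.3% as deposited and 9.56% to 52.4% under the other scalings. After Ago2 came Ago1 at -0.79, with 7.89 and 7.56 FPKM with anti-CD36 and 13.7 and 14.4 FPKM in untreated cells. Tnrc6b, Tnrc6c and Tnrc6a followed at -0.77, -0.64 and -0.63. Dicer1, Ago3, Drosha, Dgcr8 and Xpo5 were at -0.42, -0.40, -0.36, -0.32 and -0.21. The anti-CD36 libraries lay below the untreated ones in every gene but Drosha, as for 35.9% of all tested genes.

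Drosha split the anti-CD36 replicates, at 14.9 and 6.76 FPKM against 12.1 and 14.5 FPKM in untreated cells. Replicate 1, the higher of the 2, is the library with 15.7% mitochondrial FPKM. Without anti-CD36 replicate 2 the Drosha difference turned to 0.16, and without replicate 1 it was -0.88. The Ago2 difference was -1.51 without replicate 1 and -1.19 without replicate 2.

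The combination against untreated cells gave 8 falls among the 9 genes other than Ago2, where 41.8% of all tested genes were called lower, 17.3% higher and 59.1% either way. The median was -1.12 over the 10 genes and -0.23 over all tested genes. Among all genes called, 29.2% were higher as deposited, and 16.3% to 50.4% under the 4 other scalings. Ago2, given without a test because the untreated libraries also served to choose it, averaged 10.9 ± 0.713 FPKM in the combination and 24.6 ± 2.87 FPKM in untreated cells, a difference of -1.11. Ago1 fell by 1.18 (limma adjusted p = 6.9e-05), to 5.63 ± 0.355 FPKM in the combination, against 14.0 ± 0.492 FPKM in untreated cells. Ago3 was the exception, at 1.47 and 1.67 FPKM in the combination and 1.32 and 1.76 FPKM in untreated cells, overlapping ranges with a difference of 0.02 (limma adjusted p = 0.882); with the length trend removed it was 0.55 and called higher. Dgcr8 and Tnrc6c stood at 23.2% and 23.1% of their untreated levels, falls of 1.51 and 1.29. Dicer1 fell by 0.68 (limma adjusted p = 0.00397). That call was lost after quantile normalization (adjusted p = 0.0559) and with the length trend removed (adjusted p = 0.226). Drosha fell by 1.13 (limma adjusted p = 0.0122), a call that held in 14 of 18 alternatives. The Drosha call was lost with the length trend removed (adjusted p = 0.0607) and without untreated replicate 2 or either combination library.

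The combination against anti-CD36 gave the effect of LPS in cells that had the antibodies, tested here for the 9 genes other than Ago2. Of the 9, 5 fell and 1 rose, where 31.7% of all tested genes were called lower, 15.4% higher and 47.1% either way. Dgcr8 was at 1.24 and 1.31 FPKM in the combination and 4.15 and 4.29 FPKM with anti-CD36, a wide gap, and fell by 1.2 (limma adjusted p = 0.000142). Tnrc6c fell by 0.65, Xpo5 by 0.64, Ago1 by 0.40 and Tnrc6b by 0.37 (limma adjusted p = 0.0045, 0.00371, 0.0142 and 0.0466). Ago3 rose by 0.42 (limma adjusted p = 0.0191), to 1.47 and 1.67 FPKM in the combination, against 0.902 and 0.952 FPKM with anti-CD36. Drosha, Dicer1 and Tnrc6a, at -0.77, -0.27 and -0.20, did not pass the test (limma adjusted p = 0.0631, 0.148 and 0.193). Among all genes called, 32.6% were higher as deposited, and 19.96% to 50.9% under the other scalings. The Drosha difference rested on the anti-CD36 replicates, at -0.25 without replicate 1 and -1.29 without replicate 2. With mitochondrial genes left out Drosha was called lower (limma adjusted p = 0.042). The Tnrc6b call held in 4 of 17 alternatives. The Ago1 call was lost with size factors, quantile normalization, the length trend removed, a fit on the 2 groups alone or without combination replicate 2. The Ago3 call was lost with mitochondrial genes left out or without either combination library.

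Ago2 was the 1 gene with a higher FPKM in the combination than with anti-CD36 and a lower FPKM with LPS than in untreated cells. It was at 10.4 and 11.4 FPKM in the combination and 10.2 and 7.99 FPKM with anti-CD36, a difference of 0.24. The LPS effect with the antibodies minus the LPS effect without them was 0.58 ± 0.20 for Ago2, given as a description because Ago2 was chosen on 2 of the 4 groups. For the other 9 genes it ran from -0.20 (Ago3) to 0.48 (Tnrc6b), and 0.00972% of all tested genes were called by it.

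The make-up of the Argonaute pool was computed as each gene's share of the summed FPKM of Ago1, Ago2, Ago3 and Ago4. Ago2 held 57.0 ± 2.06% in the combination, 61.6 ± 1.05% with LPS, 48.0 ± 4.41% with anti-CD36 and 58.3 ± 1.59% in untreated cells. Ago1 held 29.5 ± 2.72%, 24.6 ± 0.416%, 41.0 ± 2.17% and 33.4 ± 1.82% in the same order. The Ago3 share was 8.23 ± 0.497% in the combination and 9.24 ± 0.308% with LPS, against 4.93 ± 0.597% with anti-CD36 and 3.64 ± 0.409% in untreated cells. With anti-CD36 the Ago2 share was thus the lowest and the Ago1 share the highest of the 4 groups. Ago2 was chosen for being lower with the antibodies, and the shares add up to a whole, so both are no finding. Both groups with LPS had higher Ago3 shares than both groups without it. With 2 libraries against 2, an exact permutation test cannot give a two-sided p below 0.333, so no test was made of shares.

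**Figure D3:**
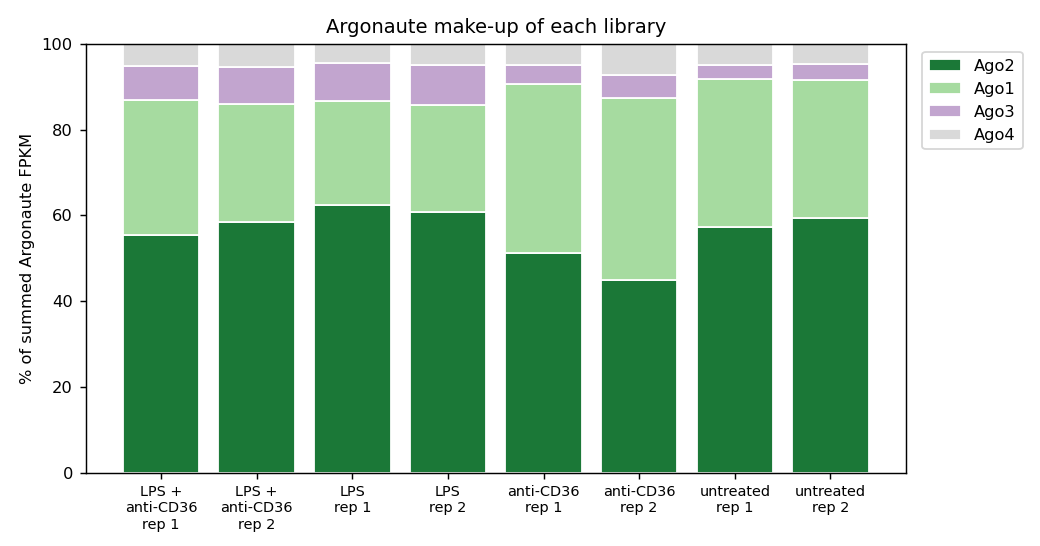
Share of the summed Argonaute FPKM (%) held by Ago1 to Ago4 in each of the 8 libraries. Ago2 holds 44.9% to 51.2% in the anti-CD36 libraries and 55.5% to 62.4% in the other 6. Ago2 was chosen for being lower with the antibodies, so this gap is a description.

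The summed Argonaute level was 19.1 ± 0.560 FPKM in the combination, 31.2 ± 0.721 FPKM with LPS, 18.9 ± 1.57 FPKM with anti-CD36 and 42.2 ± 3.77 FPKM in untreated cells. The summed Tnrc6 level was 5.50 ± 0.305, 7.16 ± 0.754, 7.85 ± 0.786 and 14.2 ± 1.36 FPKM in the same order. The ratio of Argonaute to Tnrc6 FPKM was therefore highest with LPS, at 4.38 ± 0.360, and lowest with anti-CD36, at 2.41 ± 0.0407. It was 3.47 ± 0.0907 in the combination and 2.96 ± 0.0174 in untreated cells. The Argonaute sum includes Ago2, chosen for being lower with the antibodies, so the sums and ratios with antibody are a description. The shares, sums and ratios use FPKM as deposited, without removal of the length trend described below. Drosha per Dgcr8 was 4.33 ± 0.451 in the combination and 4.35 ± 0.902 with LPS, against 2.58 ± 1.43 with anti-CD36 and 2.41 ± 0.264 in untreated cells, so the 2 microprocessor transcripts were less even with LPS than in untreated cells.

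Gene length bears on the antibody comparisons. The exons of the 10 genes covered 5935 bp (Drosha) to 23677 bp (Tnrc6b), against a median of 4335 bp over 10034 tested genes with a length, and 6 of the 10 were in the longest 10% (9698 to 40491 bp). Across these genes the Spearman rho of the difference with length was -0.476 in the combination against LPS and -0.445 in anti-CD36 against untreated cells. It was -0.318 in the combination against untreated cells, -0.164 in LPS against untreated cells and -0.145 in the combination against anti-CD36. The difference between the replicates of 1 group followed length as well, with a rho of -0.286 in the combination, -0.248 with LPS, 0.328 with anti-CD36 and -0.482 in untreated cells. These are descriptions across genes measured in the same libraries, and genes are not independent replicates.

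Ago2 has 14031 bp of exons. In the combination against LPS these longest genes had a median of -0.26 and a 10th percentile of -0.56, and Ago2 was at -0.77. In anti-CD36 against untreated cells the median was -0.32 and the 10th percentile -0.72, and Ago2 was at -1.35. Ago2 was chosen for being lower with the antibodies, so its place among these genes is no finding in either comparison. Ago3 at -0.60 was beyond the 10th percentile in the combination against LPS, while Dicer1, of 16750 bp, was at -0.01. With the length trend removed, Ago2 was at -0.49 in the combination against LPS and at -1.03 in anti-CD36 against untreated cells. The median of the 10 genes became 0.01 in the combination against LPS and -0.48 in LPS against untreated cells. It became -0.26 in anti-CD36 against untreated cells and -0.59 in the combination against untreated cells. In that last comparison the longest genes had a median of -0.50 as deposited.

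**Figure D4:**
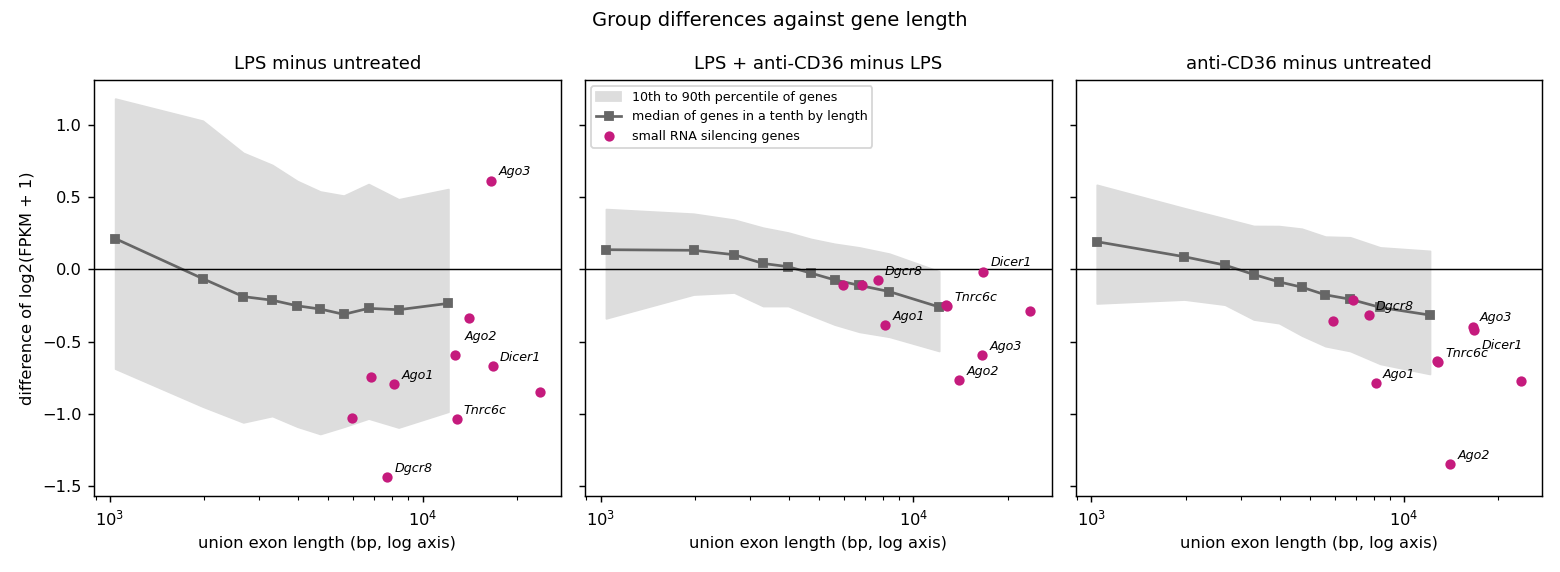
Difference of log2(FPKM + 1) against union exon length in bp (log axis), with the median and the 10th to 90th percentiles of all genes in 10 length classes, each drawn at its median length. The medians decline with length in both antibody panels. Ago2 lies at -0.77 and -1.35 there, against -0.26 and -0.32 for the median of the longest class. Ago2 was chosen for being lower with the antibodies, so its place is a description.

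Exons of Ago2 overlap those of Chrac1 on the opposite strand, and exons of Dgcr8 those of Trmt2a. Strand use in the counting was not given in the sources used here, so reads of these pairs cannot be told apart. Chrac1 differed by 0.29 in the combination against LPS (limma adjusted p = 0.289) and 0.18 in anti-CD36 against untreated cells, and fell by 0.60 with LPS against untreated cells (limma adjusted p = 0.0073). Trmt2a fell by 0.46 with LPS against untreated cells (limma adjusted p = 0.0172), as Dgcr8 fell, and differed by 0.31 in the combination against LPS (limma adjusted p = 0.237).

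The rest of the pathway was read from a list of 69 further genes, of which 61 were in the table and 60 were tested. With LPS against untreated cells 24 fell (40.0%) and 5 rose (8.3%), with a median of -0.32, against 37.5% lower and 17.0% higher over all tested genes. The share of falls was thus near that of the whole table, and the counts by class below are descriptions to be read against it. Ago4, the remaining Argonaute, fell by 0.30 (limma adjusted p = 0.0473), to 1.33 and 1.52 FPKM with LPS, against 1.90 and 2.05 FPKM in untreated cells. Of 8 partners of the microprocessor, Xpo5 and Dicer1, 4 fell and none rose: Khsrp, a splicing and decay factor that also binds precursors (-1.55), Srrt, the nuclear cap-linked factor ARS2 (-1.18), and the helicases Ddx17 (-0.51) and Ddx5 (-0.40). Of 14 genes of loading and RISC partners 4 fell and 3 rose. The import receptor Ipo8 (-1.06) and the RNA-binding Fmr1 (-0.74) fell, while its relative Fxr1 (0.80) and the chaperone Hsp90aa1 (0.80), which helps load Argonautes, rose.

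Downstream of Tnrc6, 8 of 18 deadenylation genes fell with LPS (44.4%, against 37.5% of all tested genes) and 1 rose. The falls were led by Tob1 (-1.36), an adaptor of the CCR4-NOT complex, with its subunit Cnot11 (-1.10), the adaptor Tob2 (-0.91) and the scaffold subunit Cnot1 (-0.70). Of 13 decapping and decay genes 5 fell (38.5%) and 1 rose. The decapping scaffold Edc4 (-0.76), the eIF4E transporter Eif4enif1 (-0.76) and the cofactor Dcp1b (-0.73) fell, whereas Dcp2, the decapping enzyme itself, rose (0.60). Among 6 tailing and turnover genes the uridylyltransferase Tut4 (-0.64) and the exonuclease Eri1 (-0.58) fell. Limma adjusted p-values of these pathway genes other than Ago4 ran from 0.000173 (Ipo8) to 0.0361 (Tut4).

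In the combination against LPS, limma called 0 of the 60 genes, against 1.78% of all tested genes, with 11 at an unadjusted p under 0.05 and a median of -0.10. In the combination against untreated cells 34 fell (56.7%) and 6 rose (10.0%), with a median of -0.50, against 41.8% lower and 17.3% higher over all tested genes. Among those not yet named were the CCR4-NOT subunit Cnot3 (-0.93), the decapping factors Patl1 (-0.88) and Ddx6 (-0.79), a helicase bound by CCR4-NOT, and the uridylyltransferase Tut7 (-0.57).

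Of 27 tested microRNA genes and host transcripts, 12 rose (44.4%) and 3 fell (11.1%) with LPS against untreated cells, where 17.0% of all tested genes were called higher and 37.5% lower. Of the 27, 26 were among the shortest 10% of genes, up to 1577 bp, which as a class had a median difference of 0.21. Mir155hg was at 41.6 and 45.6 FPKM with LPS and 0.865 and 0.642 FPKM in untreated cells, without overlap, and rose by 4.67 ± 0.17 (limma adjusted p = 2.0e-06). It was at 28.7 and 40.7 FPKM in the combination and 1.09 and 1.06 FPKM with anti-CD36, and the combination and LPS differed by -0.34 (limma adjusted p = 0.32). Mir22hg was at 9.78 and 14.4 FPKM with LPS and 2.88 and 3.53 FPKM in untreated cells and rose by 1.62 (limma adjusted p = 0.000978). The rows of the short hairpins Mir133a-2, Mir6955 and Mir210, with differences of -2.53, 2.29 and -1.73, were called too, on about 1 to 172 reads a library. A further row, Mir5125, rose by 1.72 in the combination against untreated cells.

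The 5 genes whose log2(FPKM + 1) followed Ago2 most closely over the 8 libraries, among 6572 genes, were Irx2, Fnip2, Itpr2, Rbm33 and Abr, with a Pearson r of 0.986 to 0.981. The 8 points share 4 groups and their depth, and r is given as a description. Fnip2, which codes for a folliculin partner, was at 8.98 and 9.67 FPKM in the combination, 13.8 and 14.9 FPKM with LPS, 8.17 and 7.42 FPKM with anti-CD36 and 14.8 and 15.9 FPKM in untreated cells. In all 5 genes the 4 libraries with antibody were below the 4 without, as for Ago2. The share of all tested genes that split this way was not computed. The 5 genes were picked for their likeness to Ago2 in these libraries, so this is no separate finding. Union exon lengths of the 5 ran from 3282 bp (Irx2, a homeobox gene) to 14802 bp (Itpr2, an inositol trisphosphate receptor).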

How the data were processed

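The authors deposited 1 table of FPKM values with 1 column per library; no library column was left unused (0). HISAT2 2.0.5 and 2 builds, mm10 and hg38, appear in the submitters' processing notes; why hg38 is listed, and which counter, annotation and strand setting were used, is not given in the sources used here. A single-cell platform is also named in the labels, but the table has 1 value per gene and library and was treated as bulk. No gene was at 0 in any library. Depth was recovered from short RNAs of at most 150 bp with under 12 reads, whose values fell on whole reads within 0.02.

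The 10289 of 10639 genes that reached an FPKM of 1 in 2 or more libraries were fitted on log2(FPKM + 1) with limma 3.58.1 in R 4.3.3, with 4 group means, a trend on mean expression, and 4 residual and 3.46 prior degrees of freedom. Calls are at a Benjamini-Hochberg adjusted p under 0.05 over all tested genes. Groups and replicates follow the labels. Exon lengths are the union of exons in GENCODE M21 for 10366 genes. The fit was tested on simulated data.

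The members and gene lists were chosen with earlier results of these data known. The text names every member; of the other pathway genes up to 4 called per class and comparison, by size of difference; and the 5 genes with the highest Pearson r with Ago2 among tested genes of mean FPKM at least 5. Alternatives were 2 other pseudocounts (0.1 and 5), all genes without a filter, genes of mean FPKM 5 or more, median-ratio size factors, quantile normalization, removal of the length trend, mitochondrial genes left out, a replicate block, a fit on the compared groups alone, and each library left out.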

Additional observations from a re-analysis of the deposited data

Results flagged for a closer look

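The difference of Ago2 with LPS had opposite signs without and with the antibodies, at -0.34 and 0.24. Both LPS libraries were below both untreated libraries, as for 54.5% of all tested genes, and both combination libraries were above both anti-CD36 libraries, as for 24.9%. The second gap was narrow, with 10.4 FPKM in the lower combination library and 10.2 FPKM in the higher anti-CD36 library, and the 0.24 became 0.08 without anti-CD36 replicate 2. The LPS effect with the antibodies minus that without them was 0.58 on the log2(FPKM + 1) scale. The difference was not tested, because Ago2 was chosen on 2 of these groups.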

How the results depend on the processing

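Of 1034 values of single members under alternatives, 911 kept direction and side of the threshold or, where untested, moved by no more than the SE. A call was lost in 46 and gained in 16, while 43 values moved and 18 changed sign. These totals count Ago2 by its calls in LPS against untreated cells and in the combination against LPS or untreated cells. Of the 46, 7 under other settings and 6 over left-out libraries were Ago2 in the combination against LPS. Of the 16, 2 under other settings and 2 over left-out libraries were Ago2 in LPS against untreated cells. These Ago2 counts are a description. In the combination against LPS the sign turned with the length trend removed in Tnrc6a (0.016), Tnrc6b (0.094), Tnrc6c (0.0068), Dgcr8 (0.072), Xpo5 (0.016) and Dicer1 (0.30), with quantile normalization in Dgcr8 (0.011) and Dicer1 (0.094), and with size factors in Dicer1 (0.028). With single libraries left out Dgcr8 ran there from -0.20 to 0.050 and Dicer1 from -0.14 to 0.11. In the combination against untreated cells Ago3 was at -0.17 with mitochondrial genes left out and ran from -0.10 to 0.15 over left-out libraries. Tnrc6a in the combination against anti-CD36 was at 0.0048 with the length trend removed. Over left-out libraries Drosha ran from -0.88 to 0.16 in anti-CD36 against untreated cells and from -0.27 to 0.77 in the interaction, where Xpo5 ran from -0.016 to 0.23. No tested value that was called with all libraries changed sign. The causes were not tested, except that a mean FPKM of at least 5 tests fewer genes and members.

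With that filter, the genes called numbered 3665 in place of 5614 for LPS against untreated cells (3 members in place of 9). They numbered 811 in place of 1405 for anti-CD36 against untreated cells. For the combination against LPS they numbered 88 in place of 183 (0 members in place of 1, Ago2). For the combination against untreated cells they numbered 3927 in place of 6076 (4 members in place of 9). For the combination against anti-CD36 they numbered 3098 in place of 4844 (2 members in place of 6). Member counts include Ago2 except in the combination against anti-CD36, and where they hold Ago2 they are a description. A fit on the compared groups alone called 0 genes for anti-CD36 against untreated cells (limma, 2017 at an unadjusted p under 0.05), 2384 for the combination against LPS with 3 members, and 3212 for the combination against anti-CD36. Removal of the length trend gave 778 genes for anti-CD36 against untreated cells, and leaving out mitochondrial genes gave 121 for the combination against LPS. In that comparison 0 members were called with a pseudocount of 0.1, quantile normalization, the length trend removed, mitochondrial genes left out or the replicate block, and 2 with a pseudocount of 5; with size factors Ago3 was called in place of Ago2. Only 1 gene was called for the interaction, with 0, 6 and 2 under pseudocounts of 0.1 and 5 and the length trend removed.

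The deviations of same-numbered libraries had correlations without a common sign, from -0.645 (untreated and anti-CD36) to 0.53 (untreated and combination). The labels give only a number, and these values cannot show whether such libraries were paired. The replicate block gave 863 genes for anti-CD36 against untreated cells and 46 for the combination against LPS.

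With each library left out in turn, a group of 1 is assumed to vary like the others. Member counts include Ago2 except in the combination against anti-CD36, and where they hold Ago2 they are a description. Genes called ran from 3583 to 7080 for LPS against untreated cells (8 to 10 members), 0 to 3726 for anti-CD36 against untreated cells, 1 to 1450 for the combination against LPS (0 to 3 members), 4382 to 7408 for the combination against untreated cells (8 to 9 members), 3214 to 6374 for the combination against anti-CD36 (3 to 8 members) and 1 to 616 for the interaction. Over left-out libraries the Ago2 difference in the combination against LPS ran from -0.83 to -0.71. The 0 calls came without either untreated library (limma, 2304 and 2005 at an unadjusted p under 0.05).

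Depth does not limit the members, which have 519 reads or more in every library. Each group has only 2 libraries, and calls also changed with scaling, the length trend and mitochondrial genes.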
